A study of Rattus norvegicus with 16 samples.

Results

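The genes described here carry out the uptake of glutamate from the extracellular space and its conversion to other amino acids in the brain. They are 9 genes: the transporters Slc1a1, Slc1a2, Slc1a3 and Slc1a6, and the enzymes Glul, Glud1, Gpt, Gpt2 and Got1. They were chosen by symbol, from 16223 symbols in the hippocampus table and 16183 in the hypothalamus table, with earlier results of these data known. Slc1a6 entered for its lower values after fructose in hippocampus and Gpt2 for its higher values after fructose in hypothalamus. Those contrasts are therefore given for these genes as a description, with no test. The samples were male Sprague Dawley rats, either untreated (control) or given fructose for 6 weeks. The dose, the route and the age are not given in the labels, nor is it said whether each sample is a separate rat, so p-values measure only the spread between these samples. Poly-A RNA was sequenced from hippocampus (4 control and 4 fructose libraries) and hypothalamus (4 control and 3 fructose libraries). The fructose replicate 4 sample of hypothalamus was not analysed here. Levels are in FPKM, fragments counted per unit length of transcript and scaled to the mapped fragments of the library, and the read depth behind them is unknown.

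Glutamate released at synapses is cleared by sodium-coupled transporters of the Slc1 family. In astrocytes glutamine synthetase turns it into glutamine, which returns to neurons and is made into glutamate again. Glutamate also exchanges its amino group with pyruvate and oxaloacetate through aminotransferases, and glutamate dehydrogenase links it to the citric acid cycle. Slc1a2 (GLT-1) and Slc1a3 (GLAST) are the main astrocyte transporters, Slc1a1 (EAAC1) is mainly neuronal, and Slc1a6 (EAAT4) is best known from cerebellar Purkinje cells. Gpt and Gpt2 are the cytosolic and mitochondrial alanine aminotransferases, and Got1 is the cytosolic aspartate aminotransferase.

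Promoter sequences from RefSeq (build GRCr8) matched 7 of the 9 genes. Those of Slc1a6 and Gpt2 are shown because these genes are the members whose fructose and control libraries did not overlap in a region. Each runs from 250 bases before to 50 bases after the annotated start, 5′ to 3′ on the gene's strand. Capitals mark the E-box CACGTG and the GC box GGGCGG, both searched on either strand along with CCAAT. The Slc1a6 window is chr7:11520958-11521257 on the minus strand and the Gpt2 window chr19:37732710-37733009 on the minus strand.
Slc1a6: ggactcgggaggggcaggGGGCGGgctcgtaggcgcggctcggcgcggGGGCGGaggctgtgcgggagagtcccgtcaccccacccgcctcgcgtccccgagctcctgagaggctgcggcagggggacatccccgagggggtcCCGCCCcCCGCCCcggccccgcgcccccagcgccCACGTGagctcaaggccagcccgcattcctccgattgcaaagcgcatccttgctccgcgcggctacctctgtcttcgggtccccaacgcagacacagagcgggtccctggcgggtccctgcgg
Gpt2: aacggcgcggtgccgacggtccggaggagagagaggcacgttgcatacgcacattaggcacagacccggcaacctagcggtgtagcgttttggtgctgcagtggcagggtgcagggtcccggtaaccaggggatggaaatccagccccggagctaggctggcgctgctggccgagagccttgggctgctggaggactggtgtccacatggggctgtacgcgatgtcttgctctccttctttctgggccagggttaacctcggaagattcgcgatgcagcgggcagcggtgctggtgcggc
The Slc1a6 window held 4 GC boxes and 1 E-box, 75.7% G and C and 35 CpG dinucleotides. The Gpt2 window held none of the 3 motifs, 64% G and C and 23 CpG. Of 33469 promoter windows of this length, 33.1% held a GC box, 6.42% an E-box and 37.5% a CCAAT box, with a median of 51.7% G and C and 7 CpG. These matches describe the letters in the windows and say nothing of binding.

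The sum of FPKM over a library's loci was between 353703 and 402099 in hippocampus and between 435105 and 492778 in hypothalamus. Control and fructose replicate 1 resembled each other more than their own groups. In hippocampus Pearson's r over tested loci was 0.985 between these libraries, 0.84 to 0.896 from them to the rest and 0.934 to 0.979 within the rest. For hypothalamus the corresponding figures were 0.98, 0.88 to 0.909 and 0.956 to 0.979. The labels do not say what sets replicate 1 apart, so results that turn on it are given with and without it. The tissue labels matched their markers: 8 genes of hypothalamic neurons summed to 3255 to 8829 FPKM in hypothalamus and to 2.96 to 27.9 FPKM in hippocampus. Of the hippocampal neuron genes, Neurod6 had a control mean of 59.5 FPKM in hippocampus and 1.06 FPKM in hypothalamus, while Fibcd1 was listed at 0 in every library of both tables.

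The levels of the 9 genes spanned a wide range, from the highly abundant Glul and Slc1a2 to the scarce Slc1a6. In control hippocampus the order by mean was Glul (768 FPKM), Slc1a2 (666), Got1 (266), Slc1a3 (158), Glud1 (124), Slc1a1 (67.6), Gpt2 (18.9), Gpt (15.2) and Slc1a6 (3.09 at its higher locus). Among neighbours in that order, the control libraries of Glul and Slc1a2 overlapped, as did those of Slc1a3 and Glud1 and those of Gpt2 and Gpt. In control hypothalamus Glul was again highest (765 FPKM), and Glud1 (210.2), Got1 (204), Slc1a3 (187) and Slc1a2 (186) followed with overlapping libraries. Slc1a1 (23.8), Gpt (10.5), Gpt2 (10.4) and Slc1a6 (4.81) were lowest, and Gpt and Gpt2 overlapped there too. The regions come from separately made tables, so levels between them are set side by side without a test.

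**Figure D1:**
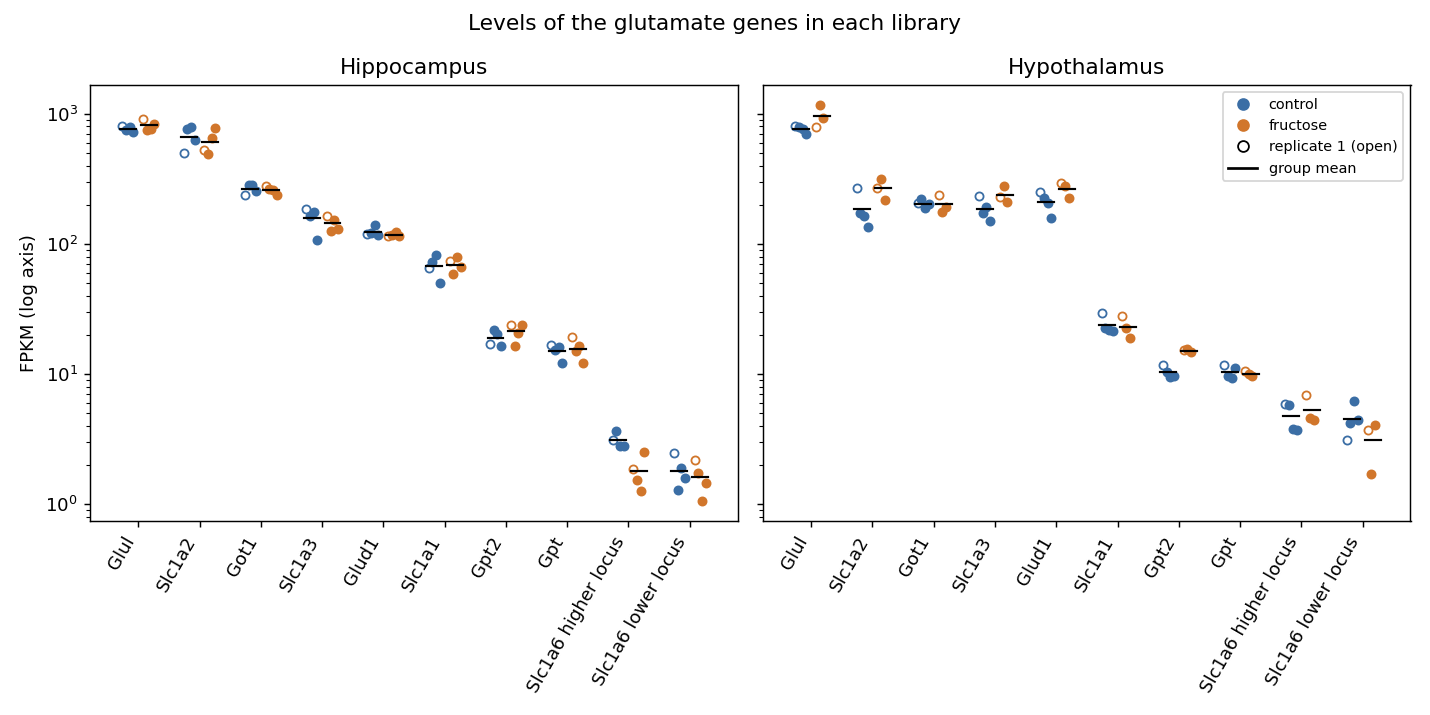
FPKM of each gene in each library (log axis), with hippocampus on the left and hypothalamus on the right, blue for control, orange for fructose, open circles for replicate 1 and a black line for the group mean. Glul lies near the top in both regions and Slc1a6 at the bottom, and the groups part for the higher Slc1a6 locus in hippocampus and for Gpt2 in hypothalamus.

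The balance of the astrocyte transporters is given by their ratio in each region. Slc1a2 was 2.68 to 5.77 times Slc1a3 in the 4 control libraries of hippocampus and 3.23 to 5.92 times in the fructose libraries. Replicate 1 was lowest in each group there, and without it the ranges were 4.47 to 5.77 and 3.85 to 5.92. In hypothalamus the ratio was 0.86 to 1.16 in control and 1.03 to 1.18 in fructose libraries. Replicate 1 was highest in each group of hypothalamus, and without it the ranges were 0.86 to 1.01 and 1.03 to 1.12. The ratio is taken within a library, so a library's scaling cancels, but loci were defined separately in the tables, and the ratio leaves out second loci of Slc1a2 and Slc1a3. With all loci of each symbol summed, an alternative chosen after seeing the data, it was 2.64 to 3.69 in control and 2.74 to 3.95 in fructose hippocampus. In hypothalamus it was then 1.16 to 1.38 in control and 1.18 to 1.6 in fructose libraries.

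Slc1a2, the chief carrier of glutamate into astrocytes, had a higher mean in the fructose hypothalamus without passing the test. It was at 270.3, 173, 165 and 135 FPKM in control replicates 1 to 4 and at 269.995, 313 and 218 FPKM in fructose replicates 1 to 3. The groups overlapped, because the control replicate 1 library lay above 2 of the 3 fructose libraries. The log2 fold change on the log2(FPKM + 1) scale was 0.55 ± 0.25 (SE, limma adjusted p = 1). In hippocampus Slc1a2 was at 666 ± 134 FPKM (SD, n = 4) for control and 612 ± 130 FPKM (n = 4) for fructose libraries, a log2 fold change of -0.12 ± 0.20 (limma adjusted p = 1). With 1 library left out it ran from -0.257 (without control replicate 1) to -0.0217 (without fructose replicate 2). Its hippocampal libraries spread from 487 to 787 FPKM over both groups. In bulk tissue fewer cells of a type and less RNA per cell cannot be told apart, here and below.

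Slc1a3, the other astrocyte carrier, followed the same pattern in hypothalamus. Its values were 233, 173, 192 and 149 FPKM in control replicates 1 to 4 and 229, 279 and 210.5 FPKM in fructose replicates 1 to 3. Again only the control replicate 1 library reached into the fructose range. The log2 fold change was 0.37 ± 0.18 (limma adjusted p = 1). In hippocampus Slc1a3 was at 158 ± 34.7 FPKM for control and 144 ± 17.99 FPKM for fructose libraries, a log2 fold change of -0.12 ± 0.19 (limma adjusted p = 1). With 1 library left out it ran from -0.289 (without control replicate 4) to -0.0301 (without control replicate 1).

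Slc1a1, the neuronal carrier, differed little in mean between the groups in either region. In hippocampus it was at 50.3 to 82.4 FPKM for control and 58.6 to 79.04 FPKM for fructose libraries, with a log2 fold change of 0.05 ± 0.17 (limma adjusted p = 1). In hypothalamus it was at 21.3 to 29.7 and 19.01 to 28.2 FPKM, with a log2 fold change of -0.043 ± 0.178 (limma adjusted p = 1). The highest hypothalamus library of each group was replicate 1.

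Slc1a6 was scarce in both regions and was represented by 2 loci in each table. The higher hippocampal locus (XLOC_025486) was at 3.14, 3.64, 2.79 and 2.79 FPKM in control replicates 1 to 4 and at 1.88, 1.54, 1.27 and 2.54 FPKM in fructose replicates 1 to 4. All fructose libraries lay below all control libraries, with the nearest values 2.54 and 2.79 FPKM. The log2 fold change was -0.56 ± 0.16, given with no test because this contrast brought the gene into the set. The lower hippocampal locus (XLOC_024862) was at 2.499, 1.28, 1.88 and 1.59 FPKM for control and 2.18, 1.74, 1.06 and 1.45 FPKM for fructose replicates 1 to 4. Its groups overlapped, and replicate 1 was highest in each.

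Reads from Slc1a6 could be split between its loci, so each value is uncertain. Summed over both loci, hippocampal Slc1a6 was at 4.39 to 5.64 FPKM for control and 2.33 to 4.06 FPKM for fructose libraries. These sums did not overlap between the groups, with a log2 fold change of -0.434. They hold the higher locus, whose contrast chose the gene, so this is a description with no test. In hypothalamus, where the gene was not chosen for its values, the higher locus (XLOC_024211) was at 5.90, 5.78, 3.79 and 3.75 FPKM for control and 6.94, 4.60 and 4.47 FPKM for fructose libraries. Its log2 fold change was 0.13 ± 0.21 (limma adjusted p = 1). The lower hypothalamic locus (XLOC_023592) was at 3.11, 4.22, 6.26 and 4.41 FPKM for control and 3.69, 1.70 and 4.05 FPKM for fructose libraries, a log2 fold change of -0.43 ± 0.28 (limma adjusted p = 1). It was -0.146 without fructose replicate 2 and -0.286 without control replicate 3. The loci of the 2 regions carry different identifiers, so which hypothalamic locus matches which hippocampal locus is not known. The sum of both hypothalamic loci had a log2 fold change of -0.142, so the direction at the higher locus did not hold for the sum.

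The sum of the Purkinje cell markers overlapped between the hippocampal groups. The 6 markers summed to 142.6 to 181 FPKM for control and 120.2 to 186 FPKM for fructose libraries. Most of that sum came from Itpr1 and Calb1 (control means 105.3 and 32.9 FPKM), which hippocampal neurons also express. The sum therefore says little of Purkinje cells. The defining marker Pcp2 was listed at 0 in all 4 control libraries and in 3 of the 4 fructose libraries, with 0.597 FPKM in fructose replicate 1. Ppp1r17, another Purkinje marker, was at 0.321, 0.416, 1.09 and 1.07 FPKM in control replicates 1 to 4 and at 0.245, 0.113, 0.304 and 0.787 FPKM in fructose replicates 1 to 4. It was scarce, with means of 0.725 FPKM for control and 0.362 FPKM for fructose libraries, and the groups overlapped. Of the 6 markers, all but Pcp2 had a lower fructose mean in FPKM, while 2 of the 6 had a positive log2 fold change. Meningeal fibroblast markers, of which 9 of 10 had a higher fructose mean and Col1a2 was listed at 0, summed to 44.7 to 447 FPKM for control and 184 to 681 FPKM for fructose hippocampus. The part of Purkinje and meningeal cells in the hippocampal Slc1a6 values was not tested.

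**Figure D2:**
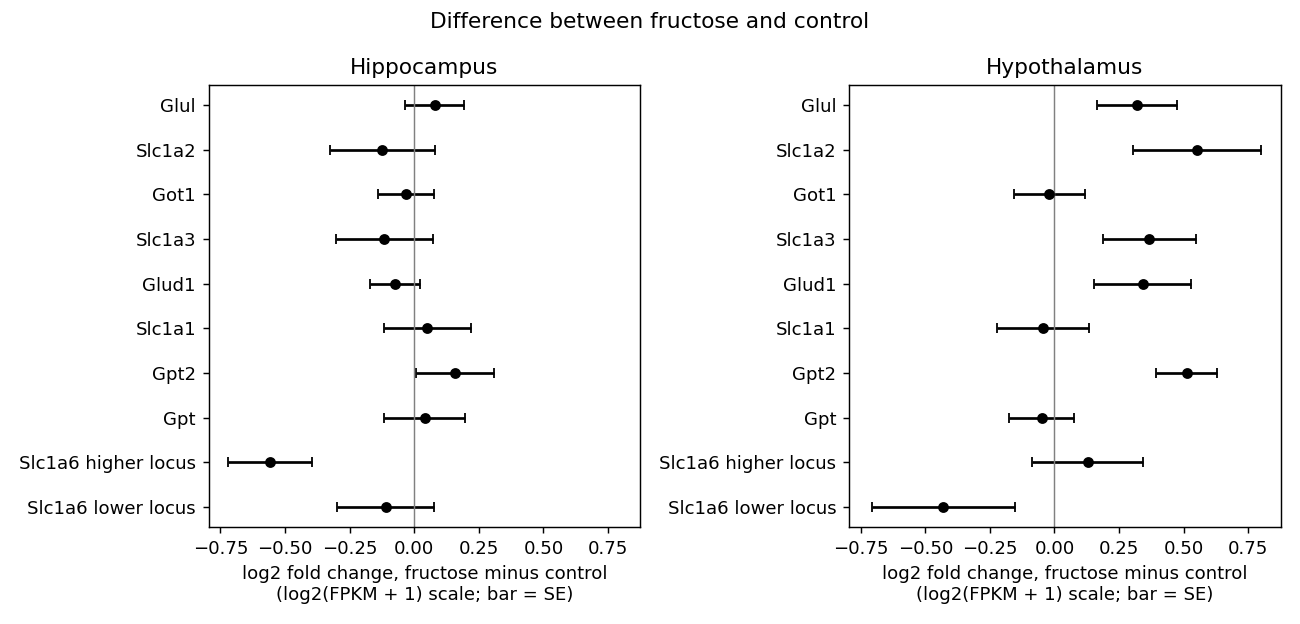
Log2 fold change of each gene (fructose minus control, on the log2(FPKM + 1) scale) with its SE from the limma model, in hippocampus (left, 4 against 4 libraries) and hypothalamus (right, 4 against 3). In hippocampus only the higher Slc1a6 locus lies more than 0.2 from 0, at -0.56, and in hypothalamus Slc1a2, Gpt2, Slc1a3, Glud1 and Glul lie between 0.32 and 0.55 and the lower Slc1a6 locus at -0.43.

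Glul, the glutamine synthetase of astrocytes, was the most abundant of the 9 genes. In hypothalamus it was at 811, 788, 762 and 697 FPKM in control replicates 1 to 4 and 797, 1172 and 926 FPKM in fructose replicates 1 to 3. Fructose replicates 2 and 3 lay above every control library, while fructose replicate 1 lay inside the control range. The log2 fold change was 0.32 ± 0.16 (limma adjusted p = 1). Without fructose replicate 2 it was 0.17. In hippocampus Glul was at 768 ± 32.8 FPKM for control and 814 ± 76.0 FPKM for fructose libraries, a log2 fold change of 0.08 ± 0.11 (limma adjusted p = 1).

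Glud1, the mitochondrial glutamate dehydrogenase, was at 252, 224, 207 and 157 FPKM in the control hypothalamus and 293, 277 and 223 FPKM in the fructose hypothalamus. The groups overlapped through the lowest fructose library. The log2 fold change was 0.34 ± 0.19 (limma adjusted p = 1), and it was 0.209 without control replicate 4. In hippocampus Glud1 was at 117 to 139 FPKM for control and 115 to 123 FPKM for fructose libraries, with a log2 fold change of -0.07 ± 0.10 (limma adjusted p = 1). The groups overlapped there too.

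The mitochondrial alanine aminotransferase Gpt2 was the member whose hypothalamic groups did not overlap. It was at 11.8, 10.4, 9.56 and 9.73 FPKM in control replicates 1 to 4 and at 15.3, 15.6 and 14.7 FPKM in fructose replicates 1 to 3. The 3 fructose libraries lay close together and above every control library, replicate 1 included. The ratio of the means was 1.46 and the log2 fold change 0.51 ± 0.12, given with no test for the reason stated above. It lay between 0.477 and 0.571 when any 1 library was left out.

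The cytosolic enzyme Gpt catalyses the same reaction, and its values gave no such separation. Gpt was at 9.26 to 11.8 FPKM for control and 9.72 to 10.5 FPKM for fructose hypothalamus, a log2 fold change of -0.05 ± 0.13 (limma adjusted p = 1). The ratio of Gpt2 to Gpt within a library was 0.869 to 1.07 in control and 1.46 to 1.57 in fructose hypothalamus. This ratio draws on the contrast that chose Gpt2 and is given as a description.

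In hippocampus, where Gpt2 was not chosen for its values, the groups overlapped. Gpt2 was at 16.9, 21.9, 20.2 and 16.5 FPKM for control and 23.9, 16.5, 20.9 and 23.8 FPKM for fructose replicates 1 to 4, a log2 fold change of 0.16 ± 0.15 (limma adjusted p = 1). Gpt was at 12.3 to 16.7 and 12.2 to 19.1 FPKM there, with a log2 fold change of 0.04 ± 0.16 (limma adjusted p = 1).

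Got1, which exchanges amino groups between glutamate and oxaloacetate in the cytosol, varied little. It was at 266 ± 22.3 FPKM for control and 259 ± 16.5 FPKM for fructose hippocampus, a log2 fold change of -0.03 ± 0.11 (limma adjusted p = 1). In hypothalamus it was at 204 ± 13.6 FPKM (n = 4) and 202 ± 31.8 FPKM (n = 3), a log2 fold change of -0.02 ± 0.14 (limma adjusted p = 1).

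All 9 genes, at 10 loci in each region, passed the filter of a mean of 1 FPKM and had an OK status in every library. None of the 10 loci passed an adjusted p of 0.05 in limma in either region. Among all loci tested, 0 of 11385 (0%) passed in hippocampus and 1 of 11498 (0.0087%) in hypothalamus. That locus is the zinc transporter Slc39a12, named after its values were seen, and the count was 0 without fructose replicate 2 and without fructose replicate 3. At an unadjusted p under 0.05 there was 1 member locus in each region, Slc1a6 in hippocampus and Gpt2 in hypothalamus, the contrasts for which they were chosen. All loci under that level numbered 92 (0.808%) in hippocampus and 361 (3.14%) in hypothalamus.

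Fructose values all below control values were found for 1 of 10 member loci in hippocampus, where 0.413% of tested loci had this pattern and 0.668% separated in either direction. Values all above control were found for 1 of 10 in hypothalamus, where 1.75% did and 3.33% separated in either direction. Both are the contrasts used in the choice, and nothing is read from these shares. The median log2 fold change over the 10 loci was -0.054 in hippocampus and 0.22 in hypothalamus, beside -0.0038 and 0.0065 over all tested loci. These medians include the contrasts that chose Slc1a6 and Gpt2, so they too are only a description.

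The hypothalamic values of the glial genes depended on replicate 1. With both replicate 1 libraries left out, fructose values lay above all control values for Slc1a2, Slc1a3, Glul and Gpt2, 4 of 10 loci, or 3 without Gpt2, which was chosen for this separation. The same held for 14.9% of 11477 loci tested with these 5 libraries, and 1 member locus (the lower Slc1a6 locus) lay below where 12.7% did. The log2 fold changes were then 0.73 ± 0.20 for Slc1a2, 0.51 ± 0.17 for Slc1a3, 0.48 ± 0.16 for Glul and 0.36 ± 0.19 for Glud1. Their limma adjusted p-values were 0.48, 0.501, 0.48 and 0.586. In hippocampus, without replicate 1, 0 of 10 member loci lay above control and 1, the higher Slc1a6 locus, below, beside 1.42% and 2.64% of 11372 loci. Slc1a6 entered the set for its lower fructose values in hippocampus, so nothing is read from the count below control. Between the replicate 1 libraries of hypothalamus, Slc1a2, Slc1a3 and Glul were all slightly lower after fructose.

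Astrocyte markers followed these genes in some of the hypothalamus libraries and not in others. The 12 of 13 markers in the table, which include Gfap, Aqp4 and Aldh1l1, summed to 4231, 5075, 4441 and 5199 FPKM in control replicates 1 to 4 and to 4081, 6483 and 5674 FPKM in fructose replicates 1 to 3. The sum was highest in fructose replicate 2, as were Slc1a2, Slc1a3 and Glul, and 9 of the 12 markers had a positive log2 fold change, with none at 0 in all libraries. Control replicate 1, the highest control library for Slc1a2, Slc1a3 and Glul, had the lowest marker sum of the controls. Meningeal fibroblast markers moved the other way, with 0 of 10 higher and sums of 203 to 371 FPKM for control and 47.3 to 209 FPKM for fructose libraries. Ependymal markers summed to 42.1 to 56.3 and 57.7 to 74.3 FPKM, with 4 of 5 higher. The part of these cell types in the values of Slc1a2, Slc1a3, Glul, Glud1 and Gpt2 was not tested. In hippocampus the 12 astrocyte markers summed to 3523 to 4109 FPKM for control and 3051 to 4403 FPKM for fructose libraries. A positive log2 fold change was found for 3 of the 12.

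**Figure D3:**
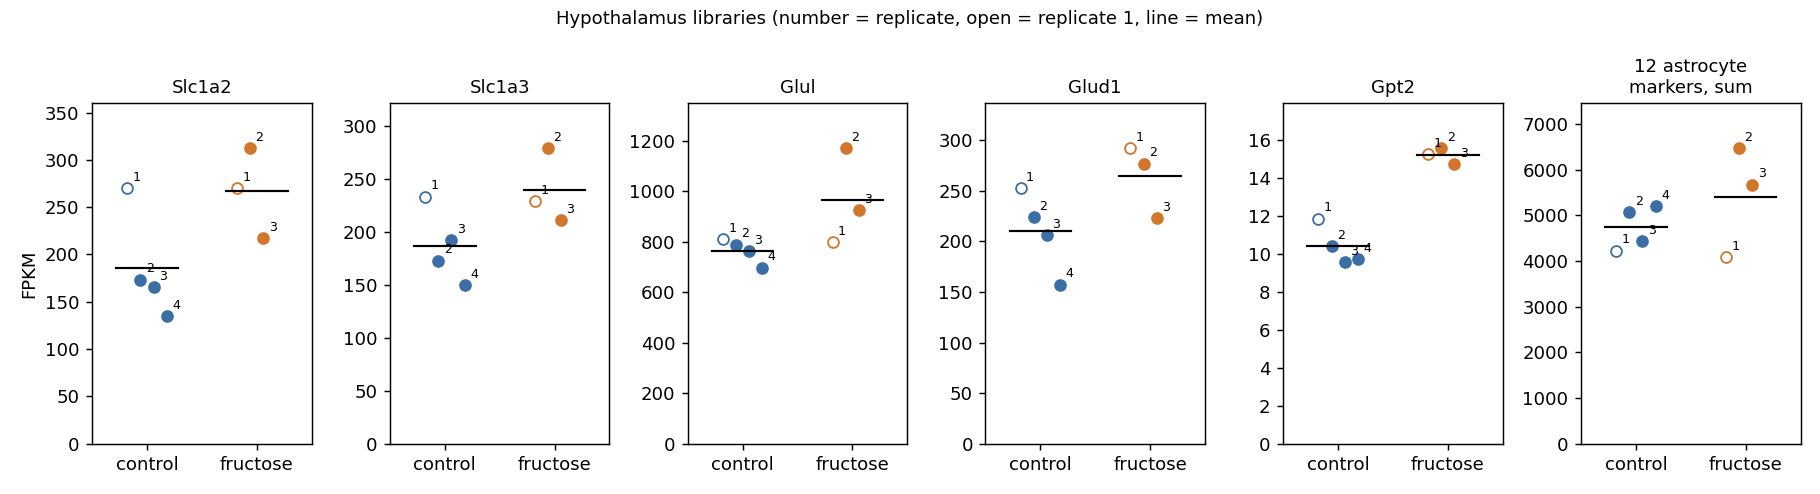
FPKM in the 7 hypothalamus libraries for Slc1a2, Slc1a3, Glul, Glud1 and Gpt2, and the sum of 12 astrocyte markers, with replicate numbers beside the points, open circles for replicate 1 and a line for the group mean. For Slc1a2, Slc1a3 and Glul the replicate 1 libraries sit at nearly the same height in both groups and fructose replicate 2 is highest, while all fructose values of Gpt2 lie above all control values.

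Several of the transporters have a second locus with the same symbol, and at 3 such loci the replicate 1 libraries were far below the rest. The second Slc1a3 locus in hippocampus (XLOC_014407) was at 2.96 and 1.88 FPKM for control and fructose replicate 1 and at 52.4 to 65.9 FPKM in the other 6 libraries. The second Slc1a1 locus there (XLOC_002907) was at 4.60 and 5.72 FPKM in replicate 1 and 55.2 to 77.6 FPKM in the others. The second Slc1a2 locus in hypothalamus (XLOC_017693) was at 0.144 and 0 FPKM in replicate 1 and 55.1 to 132 FPKM in the others. Each of these rests on the same libraries of both groups. The second Slc1a2 locus of hippocampus, at 1.76 to 5.45 FPKM, was low in all libraries.

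Over the whole tables, 382 of 11385 tested loci in hippocampus (3.36%) and 227 of 11498 in hypothalamus (1.97%) had both replicate 1 values under 0.1 times the lowest of the other libraries. Among loci of symbols with several loci, 370 of 2149 in hippocampus (17.2%) and 210 of 1747 in hypothalamus (12%) did so. Among loci of symbols with 1 locus, 12 of 9236 (0.13%) and 17 of 9751 (0.174%) did. The second Slc1a3 locus of hippocampus and the second Slc1a2 locus of hypothalamus met this rule, while the second Slc1a1 locus of hippocampus did not. For these transporters, the log2 fold changes of the summed loci were 0.042 for Slc1a1, -0.124 for Slc1a2 and -0.102 for Slc1a3 in hippocampus, and 0.51 for Slc1a2 in hypothalamus. The sums for Slc1a6, given above, differed more from its higher locus and turned direction in hypothalamus. Summed hypothalamic Slc1a2 was at 270.5, 238, 234 and 190 FPKM for control and 270.0, 445 and 298 FPKM for fructose libraries.

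**Figure D4:**
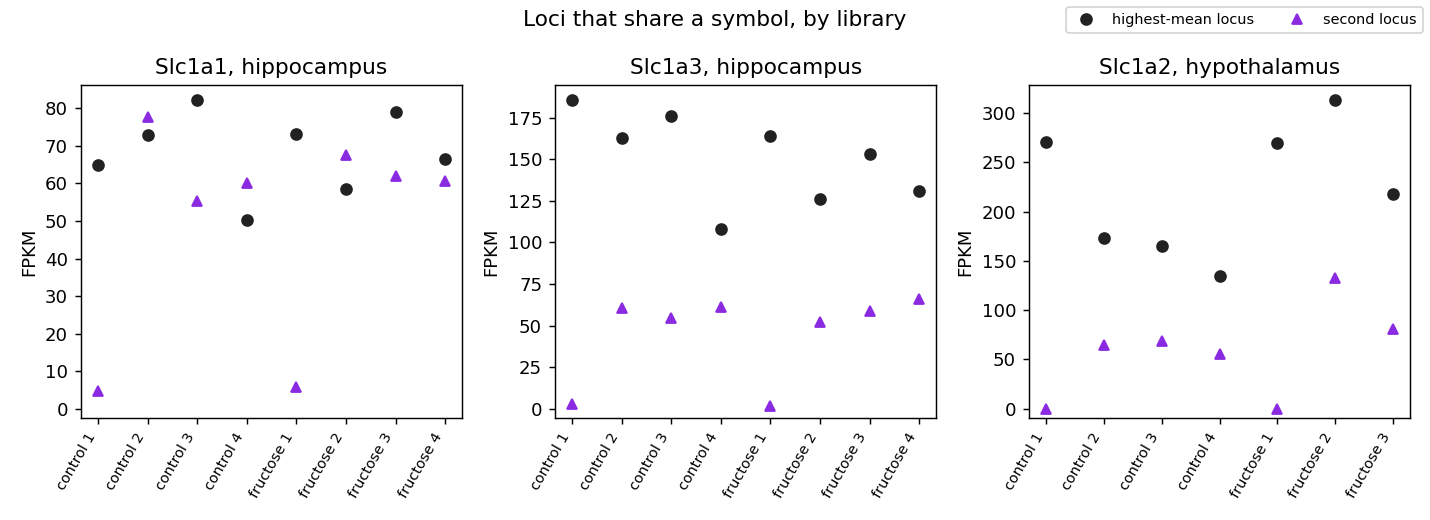
FPKM by library at the highest-mean locus (black circles) and the second locus (purple triangles) of Slc1a1 and Slc1a3 in hippocampus and Slc1a2 in hypothalamus. The second locus drops to 5.72 FPKM or less in both replicate 1 libraries and is at 52.4 FPKM or more in all others.

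The difference of the fructose effect between the regions was tested as an interaction, over 8239 symbols with 1 locus in each table. The fit treated the libraries of the regions as independent samples, though whether they come from the same rats is not known. None passed in limma (0%), and 209 had an unadjusted p under 0.05. The hypothalamus minus hippocampus difference in log2 fold change was 0.415 ± 0.213 (SE) for Glud1, 0.24 ± 0.201 for Glul, 0.0121 ± 0.183 for Got1 and -0.0902 ± 0.209 for Gpt, each with a limma adjusted p of 1. With the highest-mean locus of every symbol (9931 symbols, 0% passing), it was 0.675 ± 0.329 for Slc1a2, 0.483 ± 0.272 for Slc1a3 and -0.0928 ± 0.252 for Slc1a1, again with a limma adjusted p of 1. The Glul difference was 0.0904 without hypothalamus fructose replicate 2 and 0.368 without hypothalamus fructose replicate 1. As none passed, neither a difference nor its absence is shown for these genes.

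Around the 9 genes, 8 lists of glutamate and amino acid genes (68 genes with the members) were read from the same fits. Of 62 tested in hippocampus and 63 in hypothalamus, 0 rose and 0 fell past the adjusted threshold in limma. At an unadjusted p under 0.05 there were 2 in hippocampus (Slc1a6 and Slc17a6) and 4 in hypothalamus (among them Gpt2, Slc38a5 and Bcat2), beside 0.808% and 3.14% of all tested loci. Slc1a6 and Gpt2 are in these counts through the contrasts that chose them. The median log2 fold change was -0.027 with 25 of 62 positive in hippocampus and 0.009 with 34 of 63 positive in hypothalamus. In hippocampus the groups did not overlap for 1 of the 62 (0.668% of all tested loci), the higher Slc1a6 locus, whose contrast was used in the choice. In hypothalamus they did not overlap for 3 higher and 2 lower of 63, beside 1.75% and 1.58% of all tested loci. Gpt2, whose contrast was used in the choice, is among the 3 higher, so nothing is read from that count.

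Among carriers of glutamate and glutamine, the vesicular transporter Slc17a6, which loads glutamate into synaptic vesicles, was at 5.84 ± 1.17 FPKM for control and 4.31 ± 0.594 FPKM for fructose hippocampus. Its relative Slc17a8 was at 1.25 ± 0.215 and 1.86 ± 0.476 FPKM there. The glutamine carriers Slc38a2 (34.0 ± 9.72 to 43.7 ± 5.74 FPKM) and Slc38a7 (6.56 ± 0.297 to 7.32 ± 0.665 FPKM) also had overlapping groups in hippocampus. In hypothalamus the glutamine carrier Slc38a1 was at 35.5, 38.9, 35.5 and 35.1 FPKM for control and 39.9, 43.7 and 45.8 FPKM for fructose libraries. All its fructose values lay above the control values, though it has 2 loci and is uncertain. Slc38a5 was at 6.35 ± 1.12 FPKM for control and 4.41 ± 0.791 FPKM for fructose hypothalamus, with overlap. The mitochondrial glutamate carrier Slc25a18 (79.9 ± 11.5 to 105.3 ± 26.7 FPKM) and the neutral amino acid carrier Slc1a4 (19.3 ± 2.60 to 22.8 ± 2.57 FPKM, 2 loci) overlapped too.

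Of the 8 lists, the route from glutamate through GABA to succinate had the highest median in hypothalamus (0.23) and the lowest in hippocampus (-0.144). Over all tested loci the medians were 0.0065 and -0.0038. In hypothalamus 6 of the route's 7 genes were positive, where 51.5% of all tested loci were. In hippocampus 2 of 7 were positive, where 48.6% of all tested loci were. Aldh5a1, the last enzyme of that route, was at 39.8, 39.5, 38.3 and 37.2 FPKM for control and 40.4, 53.5 and 46.4 FPKM for fructose hypothalamus, just clear of overlap. Abat, the GABA transaminase, was at 103, 131, 119 and 114 FPKM for control and 112, 190.2 and 189 FPKM for fructose hypothalamus. Fructose replicate 1 of Abat lay within the control range and the others above it. In hippocampus Aldh5a1 was at 30.2 ± 3.67 and 26.3 ± 1.99 FPKM and the GABA-making enzyme Gad2 at 44.2 ± 14.5 and 32.9 ± 2.57 FPKM, with overlap.

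Of the branched-chain amino acid genes, the mitochondrial aminotransferase Bcat2 was at 10.7, 10.1, 13.2 and 13.98 FPKM for control and 7.94, 7.33 and 9.79 FPKM for fructose hypothalamus. All fructose values lay below control, with a log2 fold change of -0.47 ± 0.16 (limma adjusted p = 1). In hippocampus Bcat2 was at 11.1 ± 2.23 FPKM for control and 15.1 ± 5.38 FPKM for fructose libraries, which overlapped. Its cytosolic relative Bcat1 was far more abundant, at 838 ± 134 and 731 ± 115 FPKM in hippocampus and 985 ± 163 and 847 ± 96.4 FPKM in hypothalamus.

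The serine synthesis aminotransferase Psat1, which uses glutamate, was at 60.6 ± 4.88 and 69.9 ± 5.20 FPKM in hypothalamus. Aldh4a1, of proline breakdown to glutamate, was at 14.7 ± 0.59 and 16.7 ± 2.38 FPKM. The mitochondrial aspartate aminotransferase Got2 was at 151 ± 11.7 and 137 ± 20.5 FPKM in hypothalamus, and the malate and oxoglutarate carrier Slc25a11 at 93.8 ± 7.45 and 98.4 ± 3.03 FPKM. The groups of these 4 genes overlapped.

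In hippocampus the serine and glycine list had 1 of 8 genes positive, with a median of -0.111, where 48.6% of all tested loci were positive. In hypothalamus 6 of 9 were positive, with a median of 0.0195, where 51.5% of all tested loci were. The mitochondrial serine hydroxymethyltransferase Shmt2 was at 11.5 ± 1.43 and 10.2 ± 1.26 FPKM in hippocampus. Psph, the last enzyme of serine synthesis, was at 14.3 ± 3.76 and 12.1 ± 1.78 FPKM in hippocampus. Hippocampal Aldh4a1 was at 6.51 ± 0.693 and 7.38 ± 1.18 FPKM, and hippocampal Got2 (2 loci) at 82.3 ± 3.19 and 78.1 ± 7.41 FPKM. The malate dehydrogenase Mdh2 was at 90.9 ± 7.39 and 85.8 ± 11.4 FPKM in hippocampus, and the groups of all these genes overlapped. The remaining named genes overlapped as well. In hippocampus Oplah, which forms glutamate from oxoproline, was at 5.61 ± 0.665 and 6.15 ± 1.11 FPKM, the urea cycle enzyme Asl at 8.81 ± 0.5202 and 7.94 ± 1.90 FPKM, and the acetylaspartate hydrolase Aspa at 12.3 ± 3.04 and 13.99 ± 1.10 FPKM. In hypothalamus Aspa was at 15.5 ± 2.53 and 13.6 ± 4.33 FPKM, and Gldc, of glycine breakdown, at 6.99 ± 0.685 and 8.03 ± 2.43 FPKM.

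The loci whose pattern over the libraries was most like the higher Slc1a6 locus in hippocampus were Ppil2, Drd5 and Lrrc2. Their centred log2(FPKM + 1) values differed from it by a root mean square of 0.157, 0.162 and 0.17 over 8 libraries. Drd5, a dopamine receptor, was at 2.03 ± 0.443 FPKM for control and 1.51 ± 0.578 FPKM for fructose libraries. For Gpt2 in hypothalamus they were Smad4, Slc35e2b and Gpr63, at 0.0794, 0.0849 and 0.0887 over 7 libraries. Smad4, a transcription factor of TGF-beta signalling, was at 10.6 ± 1.77 FPKM for control and 14.2 ± 0.495 FPKM for fructose libraries. These loci were picked for likeness over libraries that include both groups, so their group means are a description.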

How the data were processed

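The deposited FPKM values were made by the authors. Per the submitters' processing notes, Cufflinks and Cuffdiff were used besides TopHat, TopHat2, Bowtie and Bowtie2, with build rn5, and neither versions nor roles are recorded. Annotation, strand setting and scaling between libraries are not given in the sources used here. Because a locus carries another identifier in each table, regions were joined by symbol. Members were taken at the locus with the highest mean, and Slc1a6 at every locus. The members and gene lists were chosen with earlier results of these data known.

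Loci whose mean reached 1 FPKM in a region entered limma (version 3.58.1, R 4.3.3), fitted to log2(FPKM + 1) by group alone with a trend in the prior variance. P-values were adjusted by Benjamini-Hochberg over every tested locus of the region, with a threshold of 0.05. Fold changes on this scale understate the change of scarce genes. The code was tested on simulated data. Besides the members, up to 2 genes per list with the smallest unadjusted p in each region are named. The values of 1 list gene are not reported here. Loci most like Slc1a6 and Gpt2 were found by root mean square difference. Figures used matplotlib 3.10.9.

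Same-numbered control and fructose libraries had deviations from their group means that correlated at 0.21 to 0.89 in hippocampus and 0.46 to 0.85 in hypothalamus. All are over 0.1, so a replicate block on the numbers, which come from the labels, was fitted as an alternative. Replicate 1 stood apart in both groups, and no such correlation is given for differently numbered libraries. The figures therefore cannot show that same-numbered samples are pairs. The values printed come from the fit without the block. Each alternative fit (pseudocount 0.1, no filter or at least 5 FPKM, median scaling, quantile normalization, replicate block, no replicate 1 libraries, array weights, OK status only, summed loci, each library left out) changed 1 choice. The fits of the highest-mean locus of every symbol, the reading of second loci and the ratio of summed loci were added after seeing the data.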

Additional observations from a re-analysis of the deposited data

Results flagged for a closer look

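Among 84 groups of 4 libraries checked, 7 held a library whose gap to the nearest other was large beside the group's range. Chance marks about 1 in 20 groups. For Glud1 in control hippocampus the highest library was at 138.9 FPKM and the others at 117.3 to 120.8 FPKM. For Slc1a1 in control hypothalamus, replicate 1 was highest at 29.7 FPKM and the others were at 21.29 to 22.5 FPKM. The second Slc1a1 locus in fructose hippocampus was lowest in replicate 1, at 5.721 FPKM beside 60.73 to 67.49 FPKM. The second Slc1a3 locus in control hippocampus was lowest in replicate 1, at 2.96 FPKM beside 54.41 to 61.45 FPKM. Got2 in fructose hippocampus had its lowest library at 67.06 FPKM, with the others at 80.98 to 82.66 FPKM. In control hypothalamus the highest library of Slc38a1 was at 38.92 FPKM (others 35.08 to 35.53) and that of Psat1 at 67.89 FPKM (others 57.73 to 58.85).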

How the results depend on the processing

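No member passed an adjusted p of 0.05 in limma in any fit run. The number of loci past the threshold was 0 in hippocampus (0 to 1 with 1 library left out, Rps9 without control replicate 3). In hypothalamus it was 1, and 2 with the replicate block, 2 without both replicate 1 libraries, 0 at a mean FPKM of at least 5, and 0 to 2 with 1 library left out (0 without fructose replicate 2 or 3, 2 without control replicate 1, 3 or 4). For the difference between regions it was 0, and 0 to 1 with 1 library left out (LOC685322 without hypothalamus control replicate 3). With the replicate block, in which hypothalamus control replicate 4 has no partner and so adds nothing to the estimate, the log2 fold changes in hypothalamus were 0.414 for Slc1a2, 0.276 for Glul and 0.485 for Gpt2, and the block changed no call on a member. The log2 fold changes of Slc1a6 (higher locus, -0.776 to -0.462, and -0.434 for summed loci) in hippocampus and of Gpt2 (0.477 to 0.58), Slc1a2 (0.414 to 0.809), Slc1a3 (0.252 to 0.555), Glul (0.17 to 0.536) and Glud1 (0.209 to 0.457) in hypothalamus kept their sign in every fit that gave a value. For Slc1a6 and Gpt2 these are the contrasts that chose them, and the fits reuse the same libraries, so their kept sign is a description. At a mean FPKM of at least 5, both Slc1a6 loci of hippocampus and the lower one of hypothalamus were not tested. Signs turned for genes near 0. In hippocampus, array weights gave -0.125 for Slc1a1 and -0.0309 for Gpt2, and Gpt was at -0.0067 without both replicate 1 libraries. In hypothalamus Got1 was at 0.02 after quantile normalization, Gpt at 0.00525 with array weights and Slc1a6 at -0.142 for summed loci. For Got1 the difference between regions was -0.0205 without both replicate 1 libraries. With 1 library left out, hippocampus values ran from -0.0822 to 0.151 for Slc1a1, -0.0541 to 0.15 for Gpt, -0.0834 to 0.00631 for Got1 and -0.212 to 0.000534 for the lower Slc1a6 locus. Hypothalamus values ran from -0.186 to 0.0856 for Slc1a1, -0.101 to 0.00361 for Gpt, -0.143 to 0.0697 for Got1 and -0.0457 to 0.223 for the higher Slc1a6 locus. The difference between regions ran from -0.111 to 0.102 for Got1 and from -0.199 to 0.00445 for Gpt. The cause of these changes was not tested. Read depth is unknown, so the precision of scarce genes such as Slc1a6 is known only from the spread of libraries.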
